A study of Homo sapiens with 6 samples.

Results

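The 9 genes described here are direct targets of the transcription factor p53: MDM2, MDM4, BBC3, BAX, SESN1, TP53I3, FDXR, RRM2B and ZMAT3. They were taken by gene symbol from a table of 30015 genes, and 9 of 9 were found in it. The table came from poly-A RNA-seq of HMV-II, an established human mucosal melanoma cell line whose labels give a vaginal origin. Its 3 Vector libraries came from cells stably carrying a scrambled short hairpin RNA (shRNA), and its 3 shEZH2 libraries from cells stably carrying a shRNA against EZH2, the methyltransferase of the Polycomb repressive complex that writes the H3K27me3 mark. Both groups had been made by lentiviral infection and puromycin selection and were grown in F10 medium with 10% serum, so the controls share the vector and the drug selection, and the labels call their genotype WT. The knockdown rested on 1 shRNA group. Nothing in the labels says that the replicates came from separate cultures, so p-values measure only the spread between these libraries.

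p53 binds DNA as a tetramer and switches on genes that arrest the cell cycle, repair DNA, change metabolism or start apoptosis. MDM2 and MDM4 close a feedback loop, since p53 induces MDM2 and the MDM2 and MDM4 proteins hold p53 in check. In melanoma the p53 gene is often left intact, and raised MDM2 or MDM4 activity is one known way in which the pathway is held down. The p53 response is set largely by protein stability and modification, which RNA levels do not measure.

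The p53 binding site is made of 2 half-sites of 10 bases that can be split by a spacer of 0 to 13 bases. The 250 bases before each RefSeq transcription start (GRCh38.p14) were searched on both strands for the full site by name, with at most 2 mismatches over both half-sites and with the core C and G of each half-site kept. Of the 9 genes, 8 had such a promoter entry, all but RRM2B. The site was found in 2 of these 8 genes (25%), MDM2 and FDXR, against 839 of 27305 genes with an entry (3.07%). By promoter window the counts were 3 of 15 (20%) and 875 of 35116 (2.49%). The genes were chosen as p53 targets, so these shares are a description. The windows holding the site are shown because their letters come within 2 mismatches of it, and binding by p53 was not tested. The half-sites are in capitals, and each window reads 5′ to 3′ on the strand of its gene. The MDM2 window, chr12:68808767-68809016 on the + strand, precedes the inner of the gene's start regions, with the site 94 to 75 bases before the start, no spacer and 2 mismatches.
MDM2: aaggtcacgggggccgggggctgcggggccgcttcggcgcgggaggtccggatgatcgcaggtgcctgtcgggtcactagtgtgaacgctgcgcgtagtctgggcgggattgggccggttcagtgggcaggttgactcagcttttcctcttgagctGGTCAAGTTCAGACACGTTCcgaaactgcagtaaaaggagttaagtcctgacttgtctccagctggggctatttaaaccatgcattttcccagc
The FDXR window, chr17:74872995-74873244 on the − strand, holds a site 31 to 2 bases before the start with a spacer of 10 bases and 2 mismatches.
FDXR: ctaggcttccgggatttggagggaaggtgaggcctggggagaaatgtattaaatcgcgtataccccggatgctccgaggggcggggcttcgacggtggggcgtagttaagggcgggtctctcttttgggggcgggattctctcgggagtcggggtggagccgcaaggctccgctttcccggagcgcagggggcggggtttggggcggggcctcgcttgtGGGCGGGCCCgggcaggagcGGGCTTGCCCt
A match is a description of letters, and no match says only that these letters are not in the windows of the other genes. The window for another MDM2 start 7 bases further on holds the same site. Counts per gene do not separate transcripts from the outer and inner MDM2 starts.

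Read depth ranged from 13400290 to 15923029 reads in genes for the Vector libraries and from 16129171 to 19128939 for the shEZH2 libraries. EZH2 itself was lower in every shEZH2 library, at 237, 247 and 225 normalized counts against 483, 437 and 552 in Vector. This was a fall of 1.04 on the log2 scale (SE 0.14, limma adjusted p = 0.0142, range 5.94e-08 to 0.128 over 15 alternatives, and above 0.05 without any 1 library but Vector replicate 2). Of the melanocyte lineage markers, 8 of 8 were measured, with summed levels of 75515 to 100744 normalized counts in Vector and 78898 to 85355 in shEZH2. Most of that sum was PMEL, and past the threshold TYRP1 and MLANA rose, by 1.68 and 0.88 on the log2 scale, and TYR fell by 0.97. MLANA measured 550, 197 and 541 in Vector, with replicate 2 far under the others, and 727, 696 and 720 in shEZH2 (limma adjusted p = 0.214). Summed epithelial markers (3 of 4 measured) were 396 to 437 in Vector and 343 to 366 in shEZH2, nearly all of it CDH1, with EPCAM at or near 0. Summed fibroblast markers (4 of 4) were 176 to 245 and 249 to 309, with COL1A1 and DCN at or near 0. LUM rose, from 148 ± 24.7 to 247 ± 33.9 (SD, n = 3 each), while COL1A2 fell, from 65.5 ± 10.9 to 36.9 ± 9.77. Immune markers (2 of 3) summed to at most 22.1 and endothelial markers (2 of 3) to at most 67.5. Any part of these other markers in the results was not tested. In bulk RNA, fewer cells expressing a gene and less RNA per cell cannot be told apart.

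Vector replicate 2 stood apart from the other Vector libraries along gene length. Against the mean of Vector replicates 1 and 3, its median log2 level was -0.54 for the shortest of 5 nearly equal groups of genes, then -0.37, -0.069, 0.13 and 0.42 for the longest. The 9 targets sloped in the same direction, but not all lay within the spread of genes of like length. BAX lay under the 10th percentile of its length group (-1.21) and MDM4 above the 90th percentile of its group (0.97). Vector replicate 2 was higher in the long targets, by 0.73 for MDM2, 1.13 for MDM4 and 0.51 for ZMAT3 on the log2 scale. In the short targets it was lower, at -1.52 for BAX, -0.84 for BBC3, -0.64 for FDXR and -0.26 for TP53I3, the shortest of them. Spearman's rho between gene length and this difference was 0.82 over the 9 genes, which share the same libraries, and is given as a description. Replicate 2 of shEZH2 had a slope in the same direction but smaller, with medians of -0.11, -0.052, 0.0020, 0.037 and 0.097 from the shortest to the longest genes. Its deviation had the same sign as that of Vector replicate 2 in 8 of the 9 targets, SESN1 being the exception. The log2 fold change of each target is therefore given with and without Vector replicate 2, and with the trend on gene length removed from every library.

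**Figure D1:**
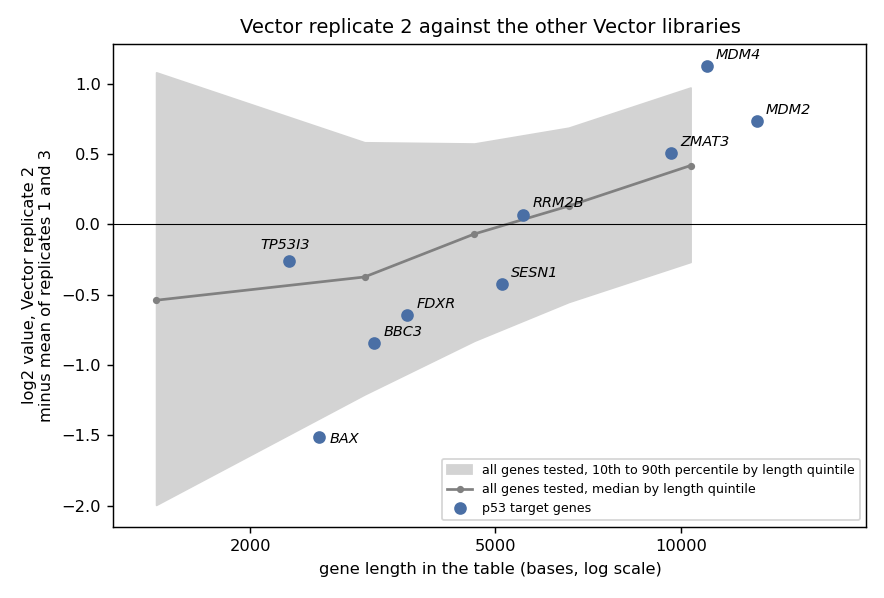
Gene length in bases (log axis) against the log2 level of Vector replicate 2 minus the mean of Vector replicates 1 and 3, for the 9 p53 target genes (points, named) and for all tested genes in 5 nearly equal groups by length (line for the median, grey band from the 10th to the 90th percentile). The medians climb from -0.54 to 0.42, with BAX at -1.52 at the short end and MDM4 at 1.13 and MDM2 at 0.73 at the long end.

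No target of the 9 changed past the study's threshold after EZH2 knockdown. The threshold asked for a fold change beyond 1.5 in either direction together with an unadjusted p under 0.05. By limma, 0 of 9 targets were higher and 0 of 9 lower, while 7.55% of the 15251 genes tested were higher and 7.07% lower. By edgeR and by DESeq2 the count was also 0 of 9, against 14.9% and 15.5% of all genes in either direction. In DESeq2, however, MDM2 lay just short of the threshold size, at -0.583 on the log2 scale with an unadjusted DESeq2 p of 0.0333. MDM4 was past that size in DESeq2, at -0.608, but its unadjusted DESeq2 p was 0.0777. At an unadjusted p under 0.05 limma called 2 of 9, SESN1 and ZMAT3, against 23.2% of all genes, and at an adjusted p under 0.05 it called 0 of 9 against 4.12%. edgeR also gave 2 targets at an unadjusted p under 0.05, against 23.3% of all genes, and DESeq2 3, with MDM2 added, against 24%. The groups did not overlap for 4 of 9, namely MDM2, SESN1, RRM2B and ZMAT3, against 34.8% of all genes. The 2 of 9 at an unadjusted p under 0.05 is near the share of all genes, and the 4 of 9 is about 1 gene above it. The median log2 fold change was -0.045 over the targets and 0.039 over all genes tested, and without Vector replicate 2 it was -0.13 and -0.0059.

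**Figure D2:**
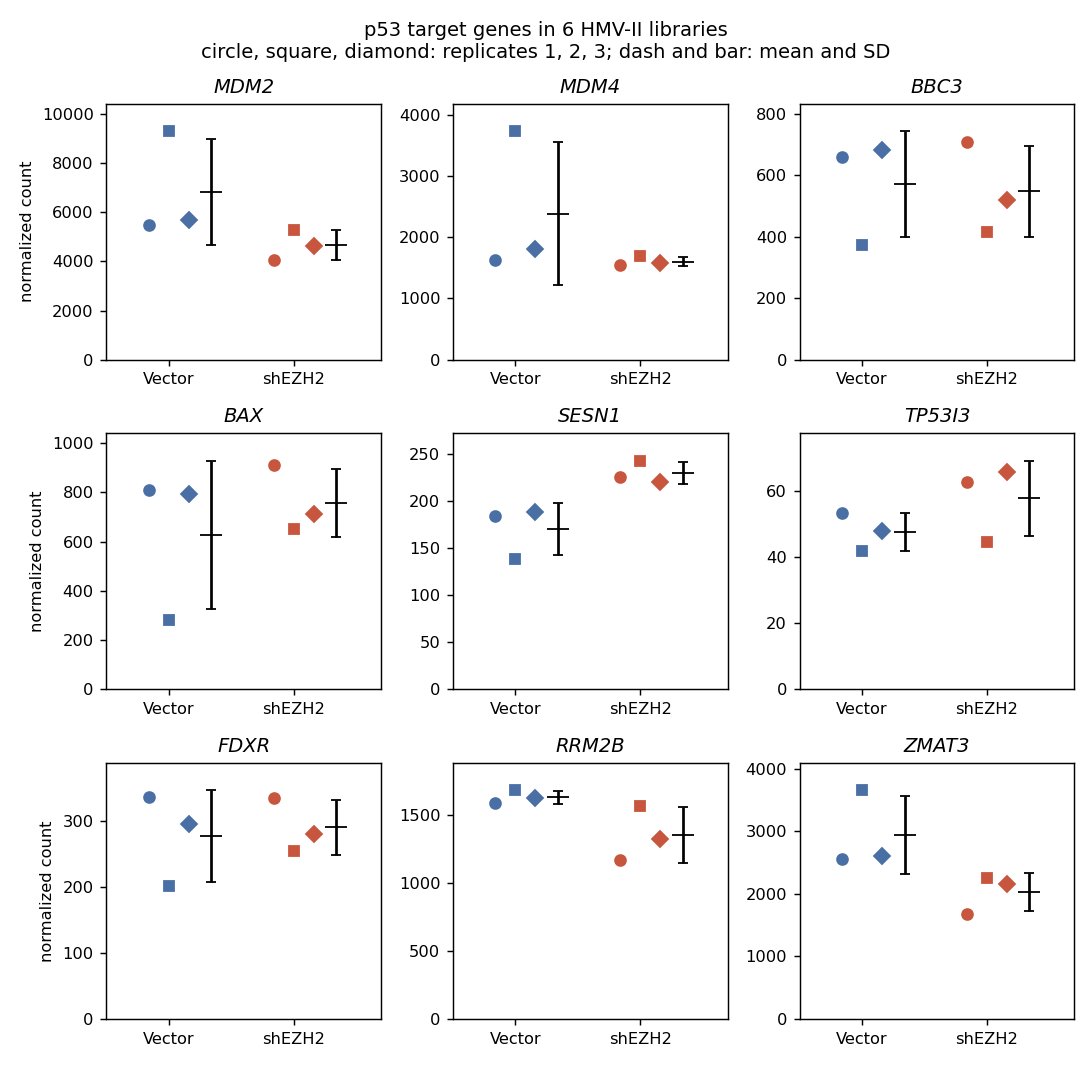
Normalized counts (linear axes from 0) of the 9 p53 target genes in each of the 3 Vector (blue) and 3 shEZH2 (red) libraries, with circles, squares and diamonds for replicates 1, 2 and 3 and a dash and bar for the group mean and SD. All shEZH2 points lie under all Vector points for MDM2, RRM2B and ZMAT3, all lie above them for SESN1, and the groups overlap in the other genes.

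Neither feedback inhibitor passed the threshold. MDM2 (ENSG00000135679, GRCh38 chromosome 12, 68808176 to 68850686, + strand) encodes the ubiquitin ligase that marks p53 for degradation. It stood at 5483, 9300 and 5700 normalized counts in Vector replicates 1 to 3 and at 4048, 5282 and 4633 in shEZH2. The groups did not overlap, but the nearest values, 5282 and 5483, were close together. Means were 6827 ± 2144 and 4654 ± 618 (SD, n = 3 each), a log2 fold change of -0.52 with a 95% interval of -1.06 to 0.022 (limma adjusted p = 0.231). Without Vector replicate 2 the change was -0.27, and without Vector replicate 1 it was -0.65 and passed the threshold. The exact permutation test gave p = 0.1, the smallest that 3 against 3 libraries allow.

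MDM4 (ENSG00000198625, chromosome 1, 204516379 to 204558120, + strand) encodes the MDM2 relative that masks the p53 activation domain. Its Vector values were 1621, 3733 and 1804 and its shEZH2 values 1544, 1687 and 1578. The groups overlapped, and Vector replicate 2 was far above the other 5 libraries. The log2 fold change was -0.47 with an interval of -1.17 to 0.23, and -0.094 without Vector replicate 2. The MDM2 to MDM4 ratio within a library, chosen after the values were seen like the other ratios below, was 3.38, 2.49 and 3.16 in Vector and 2.62, 3.13 and 2.94 in shEZH2. The groups overlapped (exact permutation p = 0.7, and 0.7 after adjustment over the 3 ratios computed).

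The pair of proapoptotic targets showed no called difference. BBC3 (ENSG00000105327, chromosome 19, 47220822 to 47232766, − strand) encodes PUMA, a BH3-only protein that neutralises the survival members of the BCL2 family. It measured 659, 373 and 681 in Vector and 707, 416 and 517 in shEZH2, and the lowest library of each group was replicate 2. Its log2 fold change was -0.045 with an interval of -0.71 to 0.62, so a change of more than the threshold size in either direction lies inside the interval. Without Vector replicate 2 it was -0.33, and without shEZH2 replicate 2 it was 0.13. BAX (ENSG00000087088, chromosome 19, 48954815 to 48961798, + strand) encodes a pore former of the outer mitochondrial membrane. It measured 808, 279 and 793 in Vector and 912, 649 and 711 in shEZH2. Vector replicate 2 was far under the other 5 libraries, which overlapped. The log2 fold change was 0.41 with an interval of -0.52 to 1.34, and it turned to -0.095 without Vector replicate 2.

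Of the stress and metabolism targets, SESN1 was the one whose shEZH2 libraries all lay above Vector. SESN1 (ENSG00000080546, chromosome 6, 108986437 to 109094819, − strand) encodes a sestrin that restrains mTORC1 signalling. It stood at 184, 139 and 188 in Vector and at 226, 243 and 221 in shEZH2, means of 170.3 ± 27.6 and 229.7 ± 11.6 (SD, n = 3 each). The log2 fold change was 0.44 (SE 0.17, interval 0.044 to 0.84), under the threshold size. In the limma fit over all genes its unadjusted p was 0.0338 and its adjusted p 0.181. It was 0.30 without Vector replicate 2, and the unadjusted p rose above 0.05 without any 1 of the shEZH2 libraries. The exact permutation test again gave its smallest p, 0.1.

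RRM2B (ENSG00000048392, chromosome 8, 102204502 to 102239118, − strand) encodes the p53-inducible small subunit of ribonucleotide reductase, which supplies deoxynucleotides for DNA repair. Its Vector libraries were tight, at 1583, 1680 and 1622, and its shEZH2 libraries were 1166, 1568 and 1319. The groups did not overlap, by a margin of 1568 against 1583. The log2 fold change was -0.28 with an interval of -0.62 to 0.064 (limma adjusted p = 0.297), and -0.26 without Vector replicate 2, whose level was only 0.068 above that of the other Vector libraries on the log2 scale.

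FDXR (ENSG00000161513, chromosome 17, 74862497 to 74873031, − strand) encodes ferredoxin reductase, which feeds electrons to mitochondrial ferredoxins. It measured 337, 201 and 295 in Vector and 336, 255.5 and 281 in shEZH2, with a log2 fold change of 0.089 and an interval of -0.43 to 0.60. The groups overlapped, and the sign turned, to -0.13, without Vector replicate 2. TP53I3 (ENSG00000115129, chromosome 2, 24077433 to 24085861, − strand) encodes a quinone oxidoreductase linked to reactive oxygen species. It was the lowest of the 9, with 36 to 69 reads per library, and measured 53.3, 41.9 and 47.9 in Vector and 62.8, 44.7 and 65.9 in shEZH2. Its groups overlapped, and the log2 fold change of 0.26 had an interval of -0.28 to 0.80. It was 0.17 without Vector replicate 2, and with 1 library left out it ran from 0.16 to 0.43, the highest without shEZH2 replicate 2. TP53I3 shares 8429 bases with FAM228B on the other strand, which averaged 35.0 normalized counts, and since use of strand in counting is not given in the sources used here, the reads of these genes cannot be told apart with certainty. MDM2 likewise shares 8490 bases with CPM, though CPM averaged only 158 normalized counts.

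ZMAT3 (ENSG00000172667, chromosome 3, 179017223 to 179072279, − strand) encodes a zinc finger protein that binds RNA and regulates splicing and stability of transcripts. It stood at 2553, 3657 and 2598 in Vector and at 1682, 2258 and 2151 in shEZH2. All the shEZH2 values lay under the Vector values, the nearest being 2258 and 2553. Means were 2936 ± 625 and 2031 ± 306 (SD, n = 3 each), a log2 fold change of -0.52 (SE 0.19, interval -0.98 to -0.069), short of the threshold size. In the limma fit over all genes its unadjusted p was 0.0292 and its adjusted p 0.168. Without Vector replicate 2 the change was -0.35 and the unadjusted limma p was 0.0132. ZMAT3 passed the threshold without Vector replicate 1 at -0.61, without Vector replicate 3 at -0.60 and without shEZH2 replicate 2 at -0.61, and its unadjusted p rose above 0.05 without shEZH2 replicate 1 or 3.

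Without Vector replicate 2, 3 of 9 targets had an unadjusted limma p under 0.05, MDM2, SESN1 and ZMAT3, against 32.2% of all genes. With the trend on gene length taken out of every library instead, the log2 fold changes of the long targets were -0.28 for MDM2, -0.27 for MDM4 and -0.36 for ZMAT3. SESN1 was at 0.41 and RRM2B at -0.29 under that setting, close to their values before it. The short targets moved more than SESN1 and RRM2B, BAX to 0.19, BBC3 to -0.21, FDXR to -0.042 and TP53I3 to 0.018.

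**Figure D3:**
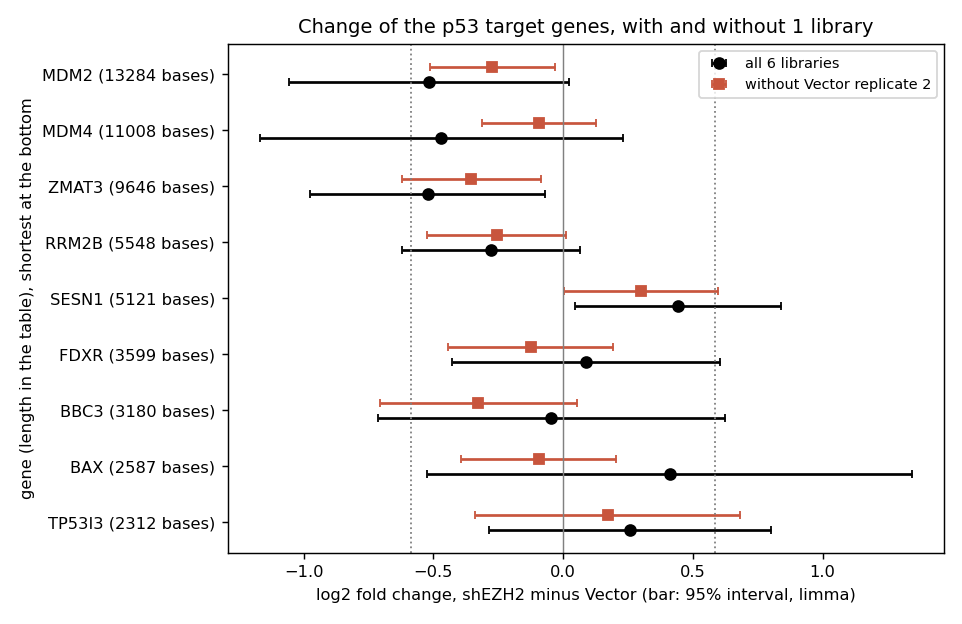
Log2 fold change, shEZH2 minus Vector, of the 9 p53 target genes with its 95% interval from limma, over all 6 libraries (black circles) and without Vector replicate 2 (red squares), with genes ordered by length (dotted lines at the study's threshold, 1.5-fold in either direction). Over all 6 libraries the intervals of ZMAT3 (-0.98 to -0.069) and SESN1 (0.044 to 0.84) exclude 0, and BAX moves from 0.41 to -0.095 without Vector replicate 2.

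Divided by gene length, MDM2 was the most abundant target in Vector at 514 ± 161 normalized counts per kb (SD, n = 3). ZMAT3 followed at 304 ± 64.8, then RRM2B at 294 ± 8.79, BAX at 242 ± 116, MDM4 at 217 ± 106 and BBC3 at 179.5 ± 54.1. From ZMAT3 to BBC3 the ranges of neighbours overlapped. FDXR at 77.2 ± 19.3, SESN1 at 33.3 ± 5.39 and TP53I3 at 20.6 ± 2.47 each lay apart from their upper neighbour. In shEZH2 the levels per kb were 350 ± 46.5 for MDM2, 293 ± 53.1 for BAX, 244 ± 36.5 for RRM2B and 211 ± 31.7 for ZMAT3. BBC3 at 172 ± 46.4 and MDM4 at 146 ± 6.78 came next, and ranges overlapped between neighbours down to MDM4. FDXR at 80.8 ± 11.5, SESN1 at 44.8 ± 2.27 and TP53I3 at 25.0 ± 4.95 again stood last.

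The genes whose profile over the 6 libraries lay nearest to that of MDM2 were STK17B, a serine/threonine kinase, UBA6, a ubiquitin-activating enzyme, and FNIP1, a folliculin partner. Their root mean square differences from MDM2 in centred log2 level were 0.0219, 0.0274 and 0.0368, out of the 11890 genes whose mean reached 50 normalized counts. Each of them was also highest in Vector replicate 2, at 998 for STK17B, 1206 for UBA6 and 1810 for FNIP1.

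Other direct p53 targets were read from a list of 27 genes, of which 25 were measured and tested. In limma 4 fell past the threshold (CCNG1, PPM1D, TNFRSF10B and TP53INP1), 1 rose (GADD45A) and 20 did not pass. Of the 25, 10 had an unadjusted p under 0.05, 2 an adjusted p under 0.05, and 13 had groups that did not overlap. The shares over all genes were 7.07% lower and 7.55% higher past the threshold, 23.2% at an unadjusted p under 0.05, 4.12% adjusted and 34.8% with no overlap. Their median log2 fold change was -0.069, and -0.15 without Vector replicate 2. CCNG1, cyclin G1, which recruits a phosphatase to MDM2, measured 2838, 2329 and 2924 in Vector and 1372, 1802 and 1599 in shEZH2. It fell by 0.76 on the log2 scale (SE 0.16, limma adjusted p = 0.0462, range 0.000289 to 0.217 over 15 alternatives). TNFRSF10B, the death receptor for TRAIL, fell by 1.23 (SE 0.22, limma adjusted p = 0.0274, range 0.00146 to 0.157), from 48.1, 53.6 and 56.0 to 20.9, 22.4 and 22.0. These genes kept the direction and the threshold under every alternative in which they were tested. Their adjusted p was under 0.05 in only 7 of the 15 alternatives for each. It was above 0.05 when any library but Vector replicate 2 was left out, and in some fits with all 6 libraries. TNFRSF10B shares 67 bases with RHOBTB2 on the other strand, which averaged 463 normalized counts.

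PPM1D, the phosphatase that switches off DNA damage signalling, went from 403 ± 38.7 to 264 ± 26.5 normalized counts (SD, n = 3 each), a fall of 0.61 on the log2 scale. TP53INP1, a cofactor of p53 in apoptosis and autophagy, went from 622 ± 80.4 to 415 ± 53.9, a fall of 0.59. Both were short of the threshold size without Vector replicate 2, at -0.54 and -0.48, without shEZH2 replicate 1, at -0.53 and -0.47, and with TMM factors in limma, at -0.58 and -0.55. TP53INP1 lay at the edge of the threshold size, and was also short of it with a pseudocount of 5 and with the trend on gene length removed. TP53INP1 shares 23440 bases with NDUFAF6 on the other strand, which averaged 178 normalized counts. GADD45A, a growth arrest and DNA damage sensor, measured 1803, 635 and 1935 in Vector and 2973, 2333 and 2349 in shEZH2. Its rise of 0.96 (SE 0.40, limma adjusted p = 0.209) was 0.44 without Vector replicate 2, short of the threshold size with an unadjusted limma p of 0.00257. Its unadjusted p was above 0.05 by edgeR, with a minimum mean of 50, and without any 1 of the shEZH2 libraries. The most abundant of these targets, the secreted stress cytokine GDF15, did not pass, with 49502, 14529 and 48239 in Vector and 50074, 40303 and 41274 in shEZH2. PHLDA3, a repressor of AKT, did not pass either, at a log2 fold change of -0.069.

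Among 15 regulators of p53, 1 rose, 2 fell and 12 did not pass, and 5 had an unadjusted limma p under 0.05 with 0 under 0.05 after adjustment. The groups of 7 did not overlap. Over all genes, 7.55% rose and 7.07% fell past the threshold, 23.2% had an unadjusted p under 0.05, 4.12% passed after adjustment and 34.8% did not overlap. The median log2 fold change was 0.044, and -0.053 without Vector replicate 2. RCHY1, the ubiquitin ligase also called PIRH2, rose by 0.99 (SE 0.23, limma adjusted p = 0.0609), from 363, 210 and 346 to 596, 663 and 520. RCHY1 shares 819 bases with THAP6 on the other strand, which averaged 384 normalized counts. The DNA damage kinases ATM and ATR each fell by 0.80 with limma adjusted p = 0.0822 and 0.0821. Both are long genes that were highest in Vector replicate 2, at 3709 for ATM and 2128 for ATR, and without that library they still passed the threshold, at -0.59 and -0.60 (unadjusted p in limma over all genes of 0.000294 and 0.000624). With the trend on gene length removed their changes were -0.44 and -0.57, short of the threshold size, with unadjusted p of 0.00346 and 0.00139 in limma. RPL5 and RPL11, ribosomal proteins that bind and inhibit MDM2, did not pass, at 0.29 and 0.61, and were at -0.25 and -0.097 without Vector replicate 2. Both have processed pseudogenes with which reads may be shared.

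RRM2 and BCL2L1 rose among the partners and paralogs of the 9 targets. Of 13 listed and 12 tested, 3 rose (RRM2, BCL2L1 and BOK), 1 fell (SESN3) and 8 did not pass, with 7 at an unadjusted limma p under 0.05, 2 at an adjusted p under 0.05 and 6 with groups that did not overlap. The same shares of all genes were 7.55%, 7.07%, 23.2%, 4.12% and 34.8%, for those that rose, fell, had an unadjusted p under 0.05, had an adjusted p under 0.05 and did not overlap. Their median log2 fold change was 0.36, and 0.16 without Vector replicate 2. RRM2, the S-phase small subunit that RRM2B can replace in ribonucleotide reductase, rose by 1.24 (SE 0.14, limma adjusted p = 0.00805, range 1.71e-12 to 0.0921 over 15 alternatives). It measured 617, 489 and 538 in Vector and 1235, 1348 and 1298 in shEZH2, and its adjusted p was above 0.05 without any 1 of the shEZH2 libraries. RRM1, the large subunit, was 1368 ± 84.3 in Vector and 1913 ± 201 in shEZH2 (SD, n = 3 each), a log2 fold change of 0.48 that was short of the threshold size.

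The RRM2 to RRM2B ratio was 0.390, 0.291 and 0.331 in Vector and 1.06, 0.860 and 0.983 in shEZH2. The groups did not overlap, and the log2 difference of 1.52 had an exact permutation p = 0.1, the smallest possible (0.3 after adjustment over 3 ratios). The genes are of like length, 5323 and 5548 bases. RRM2 entered with its own group difference known, so the ratio is a description of that pair.

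BCL2L1, which encodes the survival protein BCL-XL that binds BAX, rose by 1.18 (SE 0.19, limma adjusted p = 0.0212, range 3.90e-06 to 0.145 over 15 alternatives), from 593, 437 and 667 to 1384, 1118 and 1294. Its adjusted p was above 0.05 without Vector replicate 1 or any 1 of the shEZH2 libraries. The BCL2L1 to BAX ratio was 0.734, 1.56 and 0.841 in Vector and 1.52, 1.72 and 1.82 in shEZH2, and the groups overlapped through Vector replicate 2 (exact permutation p = 0.2, 0.3 after adjustment). MCL1, another survival protein, did not pass, at a log2 fold change of 0.075. BOK, a BAX relative, rose by 1.22 (SE 0.44, limma adjusted p = 0.161) at low levels, from 5.23, 8.15 and 6.11 to 15.2, 10.4 and 26.7. SESN3, a paralog of SESN1, fell by 0.81 (SE 0.30, limma adjusted p = 0.166), from 235, 390 and 188 to 122, 193 and 136, and its groups overlapped. BOK missed the threshold without Vector replicate 1 or 3 or shEZH2 replicate 1 or 3, and SESN3 without Vector replicate 2 or shEZH2 replicate 1 or 3.

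**Figure D4:**
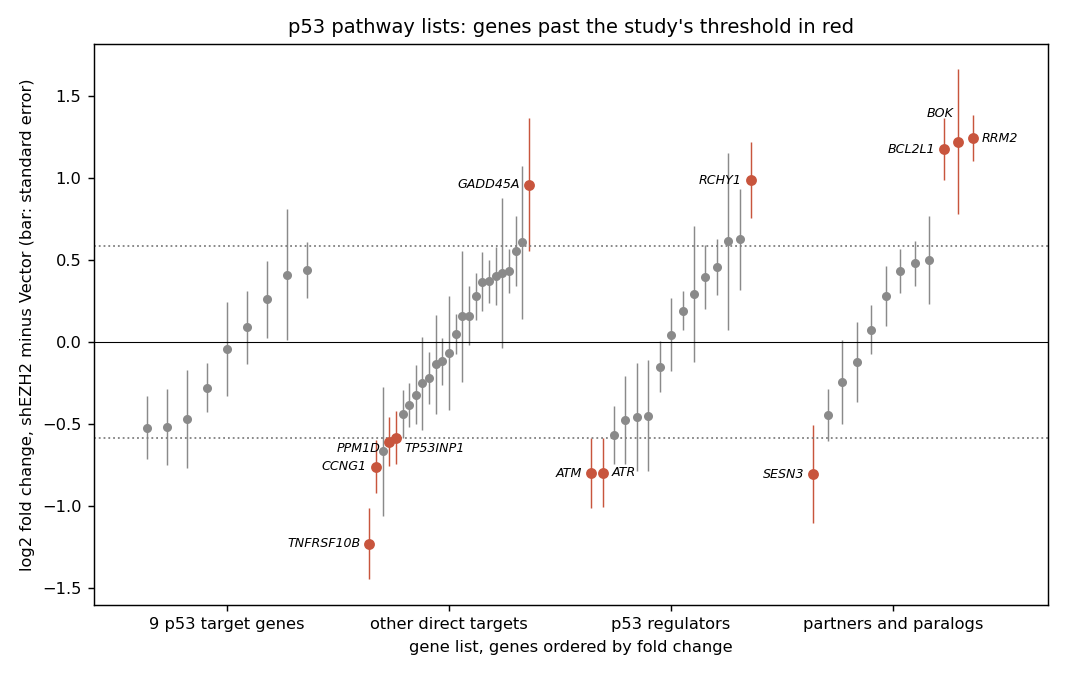
Log2 fold change, shEZH2 minus Vector, with its standard error from limma, of every tested gene in 4 lists (the 9 p53 targets, other direct targets, p53 regulators, and partners and paralogs of the 9), ordered by fold change within a list. Genes past the study's threshold (dotted lines at 1.5-fold in either direction, with an unadjusted p under 0.05) are red and named, and none of the 9 targets is among them.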

How the data were processed

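RNA-seq was made from 3 Vector and 3 shEZH2 libraries of HMV-II. Reads were counted by the authors in featureCounts v1.5.0-p3. The deposited values are a normalized signal per gene, these counts divided by DESeq2 1.20.0 size factors. The aligner and the strand setting are not given in the sources used here. The submitters' processing notes name hg19, while the coordinates of the table are those of GRCh38. The authors' columns of group means, fold changes and p-values were not used. Dividing out the steps gave whole reads for 100% of values (tolerance 0.001).

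The 15251 genes whose mean reached 10 normalized counts were tested with limma 3.58.1 on log2(normalized count + 1), with a mean-variance trend and Benjamini-Hochberg adjustment over all of them. Fold changes are on that log2 scale, which understates changes of low genes. A design naming no covariate was used, with the study's threshold. Single ratios and genes had exact two-sided permutation tests over 20 arrangements. The alternatives were edgeR 4.0.16 (2277 genes past the threshold) and DESeq2 1.42.0 (2366) on the recovered reads, TMM factors in limma, pseudocounts of 0.1 and 5, no minimum mean or one of 50, a replicate block, removal by loess of the trend on gene length, and each library left out in turn. Scripts were tested on simulated data.

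The members and lists were chosen with earlier results of these data known. Text names all 9 targets, EZH2, every gene of another list past the threshold with the 2 most abundant that were not, and the 3 genes nearest MDM2. Marker genes, genes that overlap a named gene, and the ratios were added to these. Results of some genes of the pathway are not reported here.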

Additional observations from a re-analysis of the deposited data

How the results depend on the processing

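EZH2 kept its fall past the threshold under all 15 alternatives, from -1.12 to -0.96 with 1 library left out and at -1.04 with the replicate block. Correlations of same-numbered deviations were 0.28, 0.22 and -0.11, so pairing of the libraries by replicate number was not settled. The replicate block left 0 of 9 targets past the threshold. With the block the unadjusted limma p was 0.0238 for MDM2, with an interval of -0.94 to -0.094, and 0.0559 for SESN1. Of the 9 targets, 0 to 2 were lower past the threshold with 1 library left out, and 0 under each other alternative. Targets whose groups did not overlap numbered 4, against 3 with TMM factors and 4 to 6 with 1 library left out. With fewer libraries any gene's groups separate more easily. Apart from edgeR and DESeq2, shares of all genes are not given here for the alternatives. The counts in this paragraph therefore describe only how the calls moved. The other direct targets that rose numbered 1, against 0 by edgeR, 2 with TMM factors in limma, 0 with a minimum mean of 50, and 0 to 2 with 1 library left out. Those that fell numbered 4, against 2 with TMM factors and 2 to 5 with 1 library left out. Regulators that rose numbered 1 to 2 with 1 library left out. Regulators that fell numbered 0 with the trend on gene length removed and 2 to 4 with 1 library left out, and partners that fell 0 to 1. Removal of that trend turned FDXR to -0.042 and MCL1 to -0.0020. With 1 library left out, values ran from -0.33 to 0.13 for BBC3, -0.095 to 0.67 for BAX, -0.13 to 0.24 for FDXR, -0.16 to 0.72 for GDF15, -0.48 to 0.14 for PHLDA3, -0.097 to 0.98 for RPL11, -0.25 to 0.58 for RPL5 and -0.0056 to 0.12 for MCL1. The causes of these turns were not tested. Of the other values for single genes, 359 kept their direction and side of the threshold, 24 lost it and 4 gained it. TP53I3, at 36 to 69 reads per library, is the target most limited by depth.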
